A study of Homo sapiens with 2 samples.

Results

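The genes described here are the ubiquitin-conjugating enzymes whose symbol starts with UBE2 and the ubiquitin-specific proteases whose symbol is USP and a number. They were found by the current symbol of each probe's gene. The array held 52 such genes, 12 UBE2 and 40 USP genes, on 59 probes, out of 12445 named genes and 24267 probes. A letter X or Y after the number was accepted (USP9X, USP9Y). USP6NL was left out, since it encodes a GTPase-activating protein for RAB proteins and not a protease. 1 symbol was updated, from UBE2Q to UBE2Q1.

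Total RNA came from KYSE-170, an established human oesophageal squamous carcinoma cell line. It was transfected with an oligoribonucleotide either for miR-210, which low oxygen is known to induce, or called ncRNA, whose sequence the labels do not give. Both arms were the same line treated with the same transfection reagent, and no untransfected cells were measured here. There was 1 array per arm, so no value has a replicate, no test between the arms was possible, and every difference below is between these 2 arrays.

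Ubiquitin is passed along a chain of enzymes. An E1 activates it, an E2 (most of them named UBE2) carries it as a thioester, and an E3 ligase brings the loaded E2 to the substrate. The E2 often sets which kind of chain is built. USP proteins form the largest family of deubiquitinases and cut ubiquitin from substrates or trim chains. MicroRNAs lower their targets mainly through pairing of the seed, the stretch near their 5′ end, with sites in the messenger RNA.

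The transfected agent is shown by the mature arms of the MIR210 hairpin, because it is the only difference between the arms that the labels name. The labels do not say which arm the oligoribonucleotide held. Sequences are from RefSeq on GRCh38.p14, 5′ to 3′, with the seed (bases 2 to 8) in capitals.
hsa-miR-210-3p: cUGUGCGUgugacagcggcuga
hsa-miR-210-5p: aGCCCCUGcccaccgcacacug
The 3p arm lies at chr11:568112-568133 and the 5p arm at chr11:568150-568171, both on the minus strand. Neither seed was shared by another of the 2370 mature names in the RefSeq set. Transcript sequences of the members were not used here, so no seed site in them is described.

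Values are deposited intensities, first on the ncRNA array and then on the miR-210 array. Each difference is a log2 ratio, miR-210 over ncRNA. It was taken after quantile normalization, which gives both arrays the same distribution of values. A probe was kept when its mean log2 level reached the median of all probes above 0, an intensity of 37.5. For a gene with more than 1 kept probe, the brightest was used. This left 6684 genes, among them 42 members, all 12 UBE2 genes and 30 of the 40 USP genes. The only error available is the spread between probes of a gene: individual probes scattered about the gene's ratio with a SD of 0.44 (log2), taken from the brightest pair of probes in 251 genes. It leaves out differences between cultures and arrays. Between the 2 probes of these genes the log2 ratios correlated weakly, with a Spearman rho of 0.29. A ratio beyond this SD is therefore described by its size and is not called changed. Levels of different probes are not compared, because each probe binds with its own strength.

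The medians of the arrays were 39 and 36. Values above 65000, 5 and 1 of them, were counted as saturated and were not left out. Of 14 squamous epithelial markers on the array, 12 were kept. Their log2 ratios went both ways, 6 above the probe SD and 3 below it, from ITGA6 at 1.89 (125 and 428) to SOX2 at -0.96 (90 and 43). Among the others KRT17 read 1541 and 2736 and SFN 12693 and 7094. The squamous transcription factor TP63, at 57 and 22, and the keratin gene KRT6B, at 22 and 21, were under the filter. Several defining markers of other cells were under it as well. The collagen gene COL1A1 read 21 and 16, the leukocyte gene PTPRC 9 and 10, and the endothelial gene PECAM1 21 and 9. Other markers of the same lists passed the filter. DCN, a fibroblast proteoglycan gene, read 183 and 181, DES 114 and 89, and PDGFRB 87 and 78. The endothelial genes ESAM, KDR and VWF (brighter probe) read 100 and 145, 66 and 36, and 126 and 103. The leukocyte gene CD79A read 133 and 126. Of the fibroblast and smooth muscle markers 3 of 8 were kept, of the endothelial 3 of 7 and of the leukocyte 1 of 5. Over all named probes of each list, kept or not, the summed intensities were 459 and 413, 373 and 379, and 180 and 188. These sums set the arrays side by side for a list and do not compare lists.

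Most members, like most genes, differed little between the arrays: 31 of 42 (73.8%) lay within the spread between probes, beside 65.2% of all genes. Above it lay 6 members (14.3%), beside 18.0% of all genes, and below it 5 (11.9%), beside 16.8%. At least 2-fold higher with miR-210 stood 1 of 42 members, USP15, beside 3.02% of all genes kept. At least 2-fold lower stood 0 members, beside 3.19% of all genes; together the share of all genes past 2-fold was 6.21%. At 1.5-fold, 5 members were higher, where the share among all genes was 11.9%, and 3 were lower, where it was 10.8%. Together these 8 were 19.0% of the members, against 22.7% of all genes. Ratios of the members had a SD of 0.42 and those of all genes a SD of 0.54.

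The UBE2 genes lay higher, as a median, than the USP genes on these 2 arrays. The 12 UBE2 genes had a median log2 ratio of 0.36, with 8 above 0, 3 below it and UBE2E2 at 0.00, while the 30 USP genes had a median of 0.09, with 17 above 0 and 13 below. The median over all genes was 0.01, with 50.2% of them above 0 and 48.6% below. No test of these medians is given, since the genes share the same pair of arrays. As a mean, the UBE2 genes stood at 0.21 and the USP genes at 0.04. Within the spread between probes lay 10 of the 12 UBE2 genes. The 2 above it were 16.7% of the UBE2 genes, beside 18.0% of all genes. On the deposited scale, where the median gene stood at -0.12, the UBE2 median was 0.23 and the USP median -0.03. On that scale 140 genes were 2-fold higher and 318 lower, in place of 202 and 213, so that 30.6% in place of 48.7% of such genes were higher. Of the members, 19 were then above 0 and 22 below, in place of 25 and 16.

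**Figure D1:**
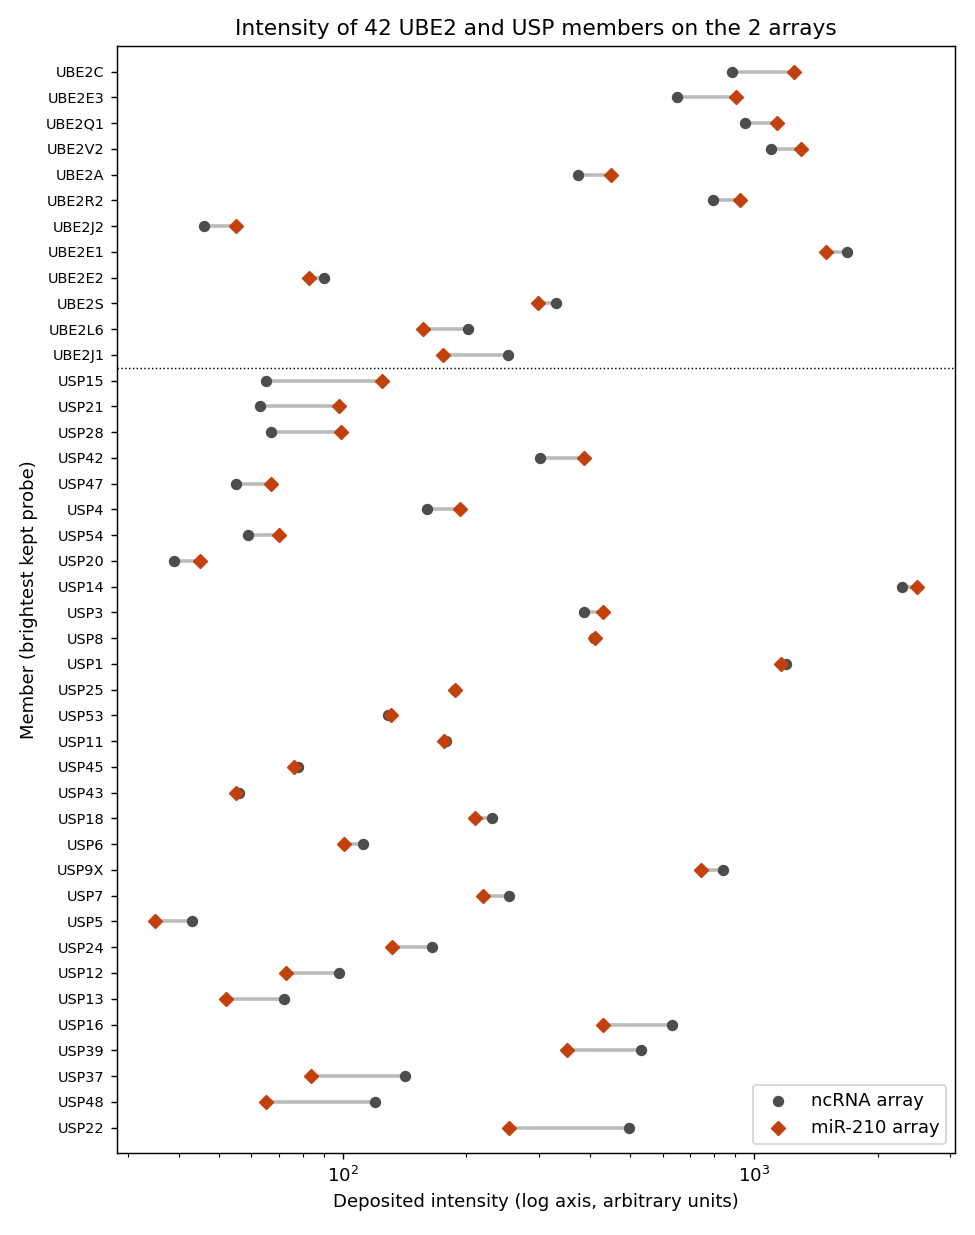
Deposited intensity (log axis) of the brightest kept probe of each of the 42 members on the ncRNA array (circles) and the miR-210 array (diamonds), with UBE2 genes above the dotted line and USP genes below it, each family in order of its log2 ratio. There is 1 array per arm and so no error bar; the widest gaps are those of USP15 (65 and 125) and USP22 (498 and 254).

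Among the E2s of broad use, UBE2E3 read 649 and 907, a log2 ratio of 0.62 or 1.54-fold above ncRNA. Its close relatives UBE2E1 (1681 and 1497) and UBE2E2 (90 and 83) stood at 0.00. The UBE2E enzymes carry an N-terminal extension before the catalytic core and serve many RING ligases. So of these 3 paralogues UBE2E3 alone was further from 0 than the spread between probes. UBE2D1 to UBE2D4, which serve many ligases, had no named probe here.

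Both E2s of the anaphase-promoting complex were measured. This complex is the ligase that drives exit from mitosis; UBE2C places the initial ubiquitins and UBE2S extends the chain. UBE2C read 883 and 1255, a log2 ratio of 0.67 or 1.59-fold above ncRNA. It ranked 610 from the highest of 6684 genes. UBE2S read 330 and 299 and stood at -0.02. UBE2C was thus beyond the probe SD and UBE2S was not; the difference between them was not tested.

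The E2s of DNA damage tolerance lay close together. UBE2A, which with RAD18 modifies the replication clamp PCNA, read 374 and 450, a log2 ratio of 0.39. UBE2V2, a variant that lacks the catalytic cysteine and works as the partner of UBE2N, read 1101 and 1300, a log2 ratio of 0.40. Both were higher on the miR-210 array by less than the spread between probes. UBE2N itself and UBE2B had no named probe here.

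Of the E2s of the endoplasmic reticulum, which tag misfolded proteins for export and destruction, UBE2J1 read 253 and 175 and UBE2J2 46 and 55. Their log2 ratios of -0.42 and 0.36 had opposite signs, each within the spread between probes. UBE2J1 was the lowest of the 12 UBE2 genes. UBE2R2, a partner of cullin ligases, read 798 and 924 with a log2 ratio of 0.37. UBE2Q1 read 952 and 1140, at 0.42. UBE2L6, the interferon-induced E2 for the ubiquitin-like protein ISG15, read 202 and 157, at -0.25. In the role lists, 24 of 36 UBE2 genes had no named probe, among them UBE2M, an E2 for NEDD8, so the UBE2 median describes a minority of the family.

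**Figure D2:**
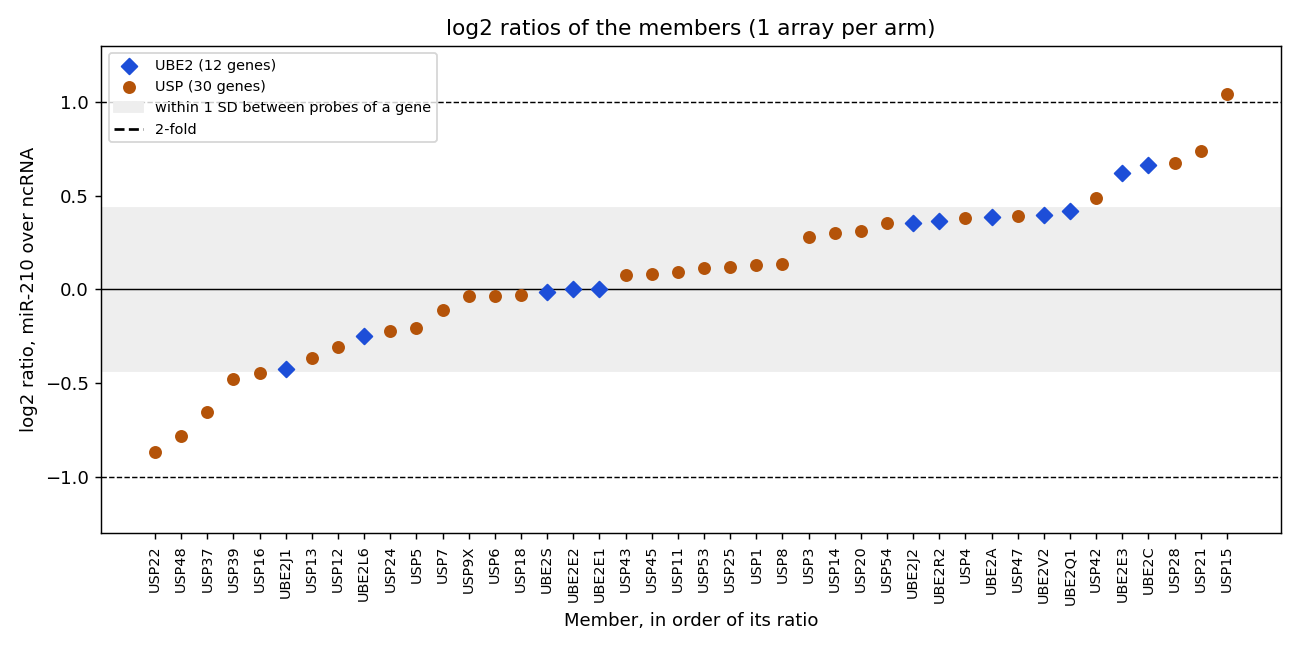
log2 ratio (miR-210 over ncRNA) for the 42 kept members in order, with UBE2 genes as diamonds and USP genes as circles; the grey band is 1 SD between probes of a gene (0.44) on each side of 0 and the dashed lines mark 2-fold. USP15 at 1.05 is the member past 2-fold, and 31 members lie inside the band.

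USP15 had the highest ratio of all members. This protease acts on SMAD and SMURF proteins of TGF-beta signalling among other substrates. It read 65 and 125, a log2 ratio of 1.05 or 2.06-fold above ncRNA, and ranked 180 from the highest of 6684 genes. It had 1 probe, and no other probe checks it. The 2-fold call ended on the deposited scale (0.94) and with 10 added to every value (0.94), and the probe was too dim for a filter at the 75th percentile. USP4 and USP11, its closest paralogues, read 160 and 193 and 178 and 176, with log2 ratios of 0.38 and 0.09. The 3 paralogues were thus all above 0 after normalization, but USP11 stood at -0.02 on the deposited scale.

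The chromatin USPs held the lowest member and a high one. USP22 is the deubiquitinase subunit of the SAGA transcription coactivator and removes ubiquitin from histones. It read 498 and 254, a log2 ratio of -0.87 or 1.82-fold below ncRNA, and ranked 323 from the lowest of all genes. USP16, which acts on ubiquitinated histones in mitosis, read 631 and 429, a log2 ratio of -0.45, at the edge of the probe SD. USP21, another histone protease, went the other way with 63 and 98, a log2 ratio of 0.74 or 1.67-fold higher. USP3 read 387 and 431, at 0.28. Proteases with related substrates therefore lay on both sides of 0.

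Among the USPs of p53, MYC and the cell cycle, USP28 and USP37 stood apart from 0 in opposite directions. USP28, which stabilises MYC, read 67 and 99, a log2 ratio of 0.68 or 1.60-fold above ncRNA. USP37, which protects cyclin A at the entry into S phase, read 142 and 84, a log2 ratio of -0.65 or 1.57-fold lower. USP7, the protease of MDM2 and p53, read 254 and 219 and stood at -0.11. USP25, the paralogue of USP28, read 188 on both arrays, with a log2 ratio of 0.12 after normalization and 0.00 on the deposited scale.

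Of the proteases that recycle ubiquitin, USP14, which binds the proteasome, read 2298 and 2500, a log2 ratio of 0.30. USP5, which disassembles free chains, read 43 and 35, and its paralogue USP13 read 72 and 52. Their log2 ratios were -0.20 and -0.36. These paralogues were both lower on the miR-210 array and both within the probe SD. USP5 was close to the level filter.

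USP1 and USP12 are switched on by the same cofactor, WDR48. USP1, which works in the Fanconi anaemia pathway, read 1196 and 1166, with a log2 ratio of 0.13 that was -0.04 on the deposited scale. USP12 read 98 and 73, at -0.31, and WDR48 itself read 225 and 150, at -0.48. WDR20, a further cofactor of USP12, read 166 and 131, at -0.23, by the brighter of its 2 kept probes. The other probe is not described here. WDR48 was slightly beyond the probe SD, and USP1, USP12 and WDR20 were within it. USP46, the paralogue of USP12, had no named probe here.

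Of the membrane and organelle USPs, USP8, which acts on receptors at endosomes, read 409 and 410, with a log2 ratio of 0.13. USP9X, a large protease with many substrates, read 840 and 743, at -0.03. USP20 read 39 and 45, at 0.31. Each was within the probe SD, as was USP18, the ISG15 protease, at -0.03 by its brighter probe.

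Of the members outside these roles, USP48, a nuclear protease, read 120 and 65, a log2 ratio of -0.78 or 1.72-fold below ncRNA. USP42 read 302 and 387, at 0.49, and USP47, which acts on DNA polymerase beta, read 55 and 67, at 0.39. USP24 read 165 and 132, at -0.22. USP39, a splicing factor with a USP fold and no protease activity, read 531 and 352, at -0.48. USP53, long regarded as inactive, read 129 and 131, at 0.12. Of these 6, USP48, USP42 and USP39 were beyond the spread between probes.

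**Figure D3:**
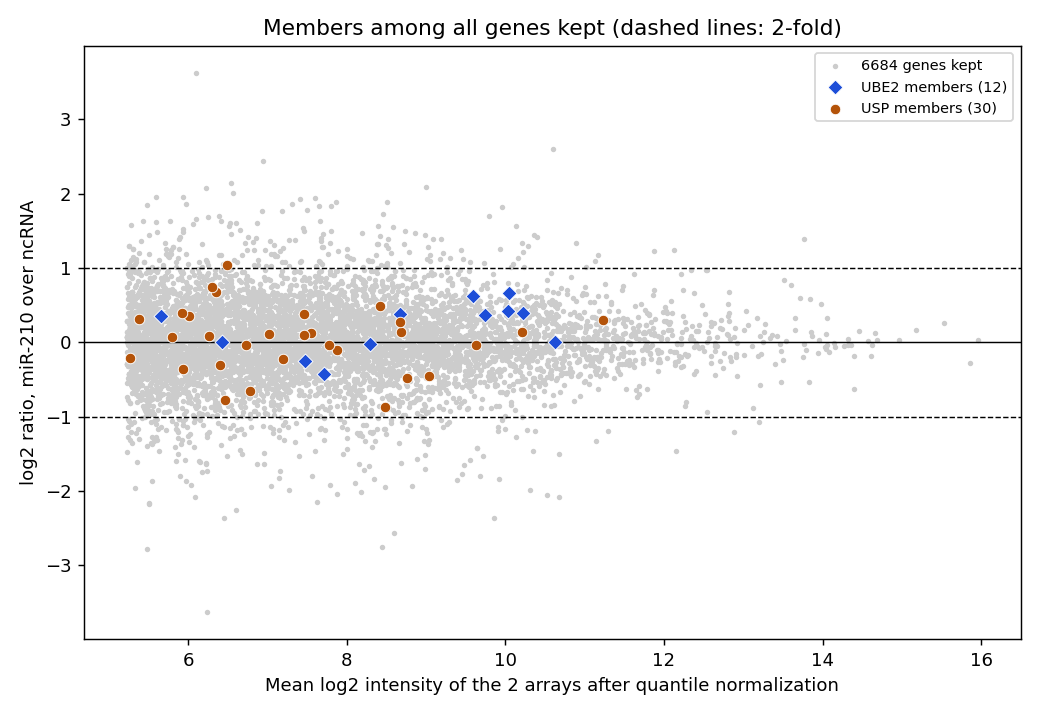
log2 ratio (miR-210 over ncRNA) against the mean log2 intensity of the 2 arrays after quantile normalization for the 6684 genes kept (grey), with the 12 UBE2 members as diamonds and the 30 USP members as circles; dashed lines mark 2-fold. The members lie inside the cloud of all genes, and USP15 alone is past a dashed line.

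Probes of the same member did not always give the same ratio. USP6, a gene of hominoid origin that is partly copied from USP32, had 3 probes. They read 112 and 101, 72 and 111, and 20 and 4, with log2 ratios of -0.03, 0.73 and -2.28. Its near-identical copies could share signal with these probes, so its ratio is uncertain. USP18 had 2 probes, which read 231 and 210 and 185 and 126, with ratios of -0.03 and -0.45, and it too has a near-identical relative, USP41.

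USP54, a relative of USP53, had a kept probe with 59 and 70, at 0.36, and dimmer probes at -0.11 and -0.29. USP45 had a kept probe with 78 and 76, at 0.08, and a dim probe with 12 and 26, at 1.14. USP43 had a kept probe with 56 and 55, at 0.08, and a dim one at -0.09. Probes of USP6, USP43 and USP54 lay on both sides of 0, while both USP45 probes were above 0 and both USP18 probes below it.

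**Figure D4:**
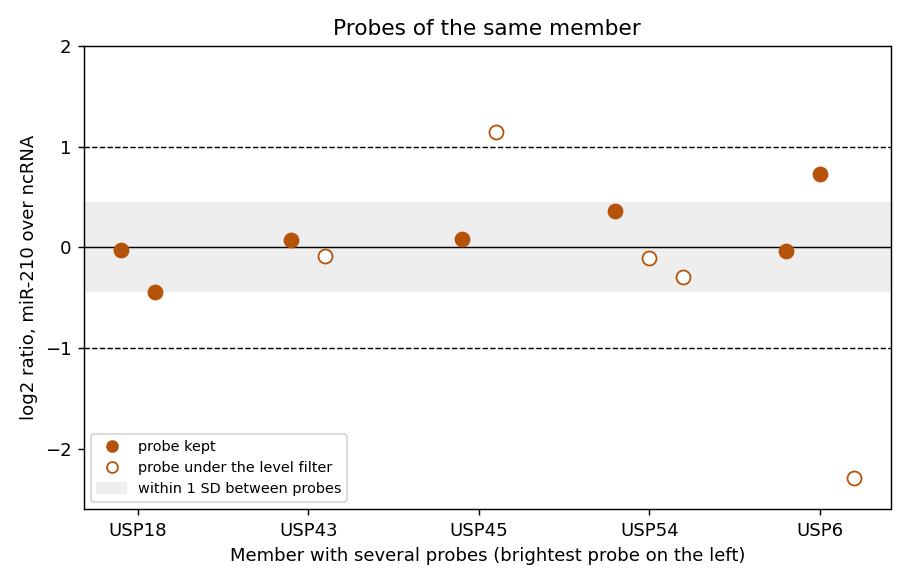
log2 ratio (miR-210 over ncRNA) for every probe of the 5 members with several probes, the brightest on the left; filled circles passed the level filter, open circles did not, the grey band is 1 SD between probes (0.44) and dashed lines mark 2-fold. The widest range is that of USP6, from -2.28 to 0.73.

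In 10 USP members no probe passed the filter. They were USP2, USP19, USP26, USP29, USP31, USP34, USP35, USP40, USP44 and the Y-linked USP9Y, whose level is not given. Without USP9Y, their intensities lay between 4 and 41. USP2 read 7 and 18, a log2 ratio of 1.40, and USP29, a gene expressed mainly in testis and brain, read 21 and 4, a ratio of -2.36. Both were more than 2-fold apart, at intensities near the bottom of the range of these arrays.

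The other genes of the pathway were taken from lists chosen with earlier results of these data known. Of 10 E1 genes 6 were on the array and 5 were kept, 3 above 0 and 2 below, with MOCS3 at 0.37 (99 and 119), ATG7 at 0.24 (200 and 220), UBA1, the main ubiquitin E1, at -0.07 (228 and 202), and UBA3, a subunit of the NEDD8 E1, at -0.35 (444 and 319). All were within the probe SD, and the median was 0.10. Of the ubiquitin and ubiquitin-like genes 5 of 15 were on the array and all 5 were kept, 2 above 0 and 3 below, with a median of -0.09. ISG15 stood at 0.46 (1449 and 1769), ATG12 at 0.19 (483 and 511), NEDD8 at -0.15 (1737 and 1394) and URM1 at -0.21 (261 and 209). ISG15 was slightly beyond the probe SD; its E2, UBE2L6, and the brighter probe of its protease, USP18, were within it.

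E2-like proteins under other symbols were all above 0 after normalization: of 6 on the array 5 were kept, with a median of 0.13. BIRC6, a giant inhibitor of apoptosis with an E2 domain, stood at 0.50 (247 and 322) and CDC34, the paralogue of UBE2R2, at 0.23 (596 and 652). On the deposited scale the ATG3 and TSG101 intensities were lower with miR-210 (1197 and 1080, 457 and 437). Of 35 deubiquitinases and related proteins outside the USP symbols, 13 were on the array and 12 were kept. Of the kept genes 8 were above 0 and 4 below, with a median of 0.11. Not every gene of this list encodes a deubiquitinase. MINDY3 stood at 0.50 (207 and 269), the endosomal protease STAMBP at 0.47 (1060 and 1310), UCHL1 at -0.70 (160 and 91) and PAN2, listed on the platform as USP52 and a subunit of a deadenylase, at -0.81 (76 and 40). No gene of these lists was 2-fold apart.

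Among USP partners 4 of 5 on the array were kept, 2 above 0 and 2 below, with a median of -0.06. ATXN7L3, the SAGA subunit that activates USP22, stood at 0.36 (165 and 196) while USP22 stood at -0.87. GMPS, a partner of USP7, stood at 0.12 (1137 and 1108). The subunit and its protease thus lay on opposite sides of 0, and ATXN7L3 was within the probe SD.

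Ligases that work with the E2s, and partners of these ligases, were split. Of the HECT and RBR ligases 17 of 21 on the array were kept, 9 above 0 and 8 below, with a median of 0.06. HACE1 stood at 0.89 (42 and 72), ARIH1, the partner of neddylated cullins, at 0.66 (200 and 291), UBE3B at -0.64 (154 and 91) and WWP2 at -0.93 (90 and 44). Of the cullins, their partners and the anaphase-promoting complex 20 of 21 were kept, 10 above 0 and 10 below, with a median of 0.01. CUL1 stood at 0.70 (583 and 871), CUL2 at 0.63 (405 and 581), ANAPC1 at -0.74 (106 and 59) and CUL5 at -1.08 (102 and 45). CUL5, 2.11-fold lower by its 1 kept probe, was the gene of these pathway lists past 2-fold. Among all genes kept, 6.21% were past 2-fold in either direction. The ratio of CUL5 under the alternatives is not given here. The splits of these lists around 0 depend on the scale. On the deposited scale the cullin list had 6 genes higher with miR-210, 13 lower and 1 equal. The HECT and RBR list had 6 higher and 11 lower, and the deubiquitinases and related proteins outside the USP symbols 6 and 6. The E1 genes were then 2 and 3, the ubiquitin and ubiquitin-like genes 2 and 3, the E2-like genes 3 and 2, and the USP partners 1 and 3.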

How the data were processed

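The deposited values are intensities of a 1-colour array on a linear scale, as judged from the numbers themselves: whole numbers from -8 to 65496. Per the labels' protocols, aminoallyl-cRNA from 500 ng of total RNA was labelled with Cy5. Some deposited intensities are under 0, as background subtraction can give; background correction and normalization by the authors are not stated in the labels. Detection calls were not used. From these intensities, log2 values of the 24177 probes above 0 on both arrays were quantile normalized. Gene symbols came from the platform annotation and were updated through unambiguous synonyms in the RefSeq table of GRCh38.p14: 13395 probes had 1 symbol, 10872 are unnamed here, and 113 symbols matched no current name. The array's genome build is not named, so no gene coordinates are given.

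The members, role lists and pathway lists were chosen with earlier results of these data known. Members at least 1.5-fold apart, those with several probes, close paralogues and the ends of each role list are named, and of each pathway list up to 2 kept genes on each side of 0. Other kept members and some partners and markers were named for completeness after their values were seen. The calls rest on size (2-fold), not on a test, and precision is limited by the number of arrays. The normalization was tested on simulated data with equal numbers of raised and lowered probes and the same shift at every level. That setting cannot show which scale is right for these arrays. Alternatives were no normalization, median centring, loess, other level filters, an offset, the mean over probes and other folds. Python 3.11.15, numpy 2.4.6, pandas 2.3.3, scipy 1.17.1 and statsmodels 0.14.6 were used.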

Additional observations from a re-analysis of the deposited data

How the results depend on the processing

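On the deposited scale without between-array normalization, the count of members at least 2-fold higher was 0, the UBE2 median was 0.23 and the USP median was -0.031, beside a median of -0.12 for all genes. The count at least 2-fold higher was also 0 with a level filter set at the 75th percentile (24 members), with an offset of 10, and at 3-fold. With no level filter it was 2 (USP15 and USP2), and 1 member (USP29) was at least 2-fold lower, while 14.0% of all genes were 2-fold apart. At 1.5-fold, 5 members were higher and 3 lower. Median centring, loess on level and the mean over probes gave the main counts. All 276 ratios of a member under an alternative lay within the probe SD of 0.44 of its main ratio. Part of this was fixed in advance, since another level filter cannot change the ratio of a kept member. The mean over probes can change it only for members with more than 1 kept probe. The count thus describes rescaling of the same arrays, not whether a ratio would repeat. The sign changed under 1 or more alternatives for 6 members (UBE2E1, USP1, USP11, USP43, USP45 and USP6), whose main ratios were at most 0.13 in size, and UBE2E2 went from 0.00 to -0.12. Signal near the background limits the dim members. No paired analysis was possible because each group has 1 sample.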
